A study of Saccharomyces cerevisiae with 4 samples.

Results

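The genes described here encode the protein components of the large (60S) subunit of the cytosolic ribosome of budding yeast, Saccharomyces cerevisiae. They were taken as every gene of the table whose standard name is RPL with a number and, where duplicated, a letter A or B, together with the ribosomal stalk genes RPP0, RPP1A, RPP1B, RPP2A and RPP2B. In all, 81 of the 7126 features in the table met this rule, 76 RPL genes and 5 stalk genes, and they encode 46 proteins. Of these proteins, 35 are made from a pair of duplicated genes (70 genes) and 11 from a single gene, namely RPL3, RPL5, RPL10, RPL25, RPL28, RPL29, RPL30, RPL32, RPL38, RPL39 and RPP0.

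RNA levels were measured in 4 libraries of ribosomal-RNA-depleted total RNA, 2 from a strain without DBP2 (called dbp2null) and 2 from wild type, to ask how RNA levels differ without the DEAD-box RNA helicase Dbp2. The dbp2null strain is BTY115, MATa with dbp2::KanMx, ura3Δ0, leu2Δ0, his3Δ0, TRP1, met- and lysΔ. Wild type is MATa with his3Δ1, leu2Δ0, met15Δ0 and ura3Δ0. All cultures were grown in YPD at 30 °C to an optical density near 0.4, and the library kit was used with changes that keep short RNAs. The strains carry different markers, so absence of Dbp2 and strain background cannot be told apart.

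A ribosome holds 1 copy of nearly every large-subunit protein, and the acidic stalk proteins, which recruit translation factors, are the exception with several copies. Yeast carries many of these genes as duplicates from an ancient genome duplication, and their introns make up much of the splicing load of a growing cell. The transcription factor Rap1 binds most of their promoters and recruits the activators Fhl1 and Ifh1 to keep the set highly transcribed during growth. Some of the proteins also limit their own production by binding an intron of their own transcript, as known for Rpl30 and Rpl22.

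Of the 81 genes, 53 have an intron in the coding region, 2 of them (RPL7A and RPL7B) with 2 introns, and 28 have none. Annotated coding length ran from 78 to 1164 bases with a median of 450 bases, and 9 genes were under 300 bases. Coordinates and sequences are from the RefSeq annotation of assembly R64 (sacCer3), which lists the 81 genes on 14 chromosomes. The shortest coding sequences, those of RPL41A (chrIV:130407-130484, minus strand) and RPL41B (chrIV:221724-221801, minus strand), are shown whole because reads of such a pair are hard to assign to 1 copy. The capital is the only base at which they differ.

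RPL41A: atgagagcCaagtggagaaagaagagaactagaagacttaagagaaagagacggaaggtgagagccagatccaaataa

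RPL41B: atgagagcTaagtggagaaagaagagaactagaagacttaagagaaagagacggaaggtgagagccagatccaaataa

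The stretch of 60 coding bases with the most differing positions is shown for RPL8A (chrVIII:35597-35656, minus strand) and RPL8B (chrXII:48201-48260, minus strand). This pair had the largest shift in its ratio apart from RPL36, which has a copy listed at 0. Capitals mark the 7 positions at which they differ. The stretch was picked for its differences, and over the whole coding sequence the copies are 95.1% identical. It does not show how reads were divided between them.

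RPL8A: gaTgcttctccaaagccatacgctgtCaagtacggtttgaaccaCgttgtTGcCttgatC

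RPL8B: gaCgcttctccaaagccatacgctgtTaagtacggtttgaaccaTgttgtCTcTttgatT

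Junctions between the first coding exon and its intron are shown for 4 genes whose splicing has been studied in yeast, RPL28 (chrVII:311006-311035, plus strand), RPL30 (chrVII:439084-439113, plus strand), RPL22A (chrXII:263196-263225, plus strand) and RPL22B (chrVI:64901-64930, minus strand). Capitals mark the first 6 bases of the intron, the 5′ splice site.

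RPL28: cacgtctcagGTATGTagttccatttggaa

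RPL30: cgcagagatgGTCAGTataacatgatttta

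RPL22A: ggccccaaacGTATGAtactttaaaaggaa

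RPL22B: ggctccaaacGTACGTtaattttcgttcct

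Of the 55 introns, 44 begin with GTATGT, as in RPL28, and 52 hold TACTAAC, the usual branch point. The splice site GTACGT of RPL22B is shared by 5 genes in all, RPL16A, RPL16B, RPL22B, RPL27A and RPL27B. RPL30 and RPL20A have sites of their own, GTCAGT and GTGAGT.

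Levels are FPKM, fragments scaled to the length of the feature in kilobases and per mapped fragments of the library, as the authors scaled them. Depth per library is unknown. FPKM summed over nuclear protein-coding features to 2297338 and 681688 in dbp2null replicates 1 and 2 and to 2187684 and 2237774 in wild-type replicates 1 and 2, so dbp2null replicate 2 stood apart. The deleted gene DBP2 was read at 2.90 and 1.03 FPKM in dbp2null, against 213 and 199 FPKM in wild type. Because of the library that stands apart, values are given for each library, and measures taken within a library (ranks and ratios between genes) are given beside fold changes. The libraries of a genotype are named as biological replicates, without a word on separate cultures. The p-values below rest on the spread between these libraries, pooled over features of like level, and not on that of a gene alone.

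The large-subunit genes were among the most abundant RNAs in every library. In wild type they held 47.9% and 46.7% of all nuclear protein-coding FPKM, against 45.5% and 25.3% in dbp2null. The median gene stood at 3744 and 4326 FPKM in wild type and at 2596 and 1131 FPKM in dbp2null. Ranks within a library were alike, with the median gene at percentiles 98.5 and 98.5 of nuclear protein-coding features in wild type and 98.3 and 98.6 in dbp2null. Most genes were in the top 5% of each library, 76 and 77 of 81 in wild type and 73 and 74 in dbp2null. The lowest gene other than RPL36B stood at percentiles 92.8 and 93.5 in wild type and at 84.9 and 62.7 in dbp2null.

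**Figure D1:**
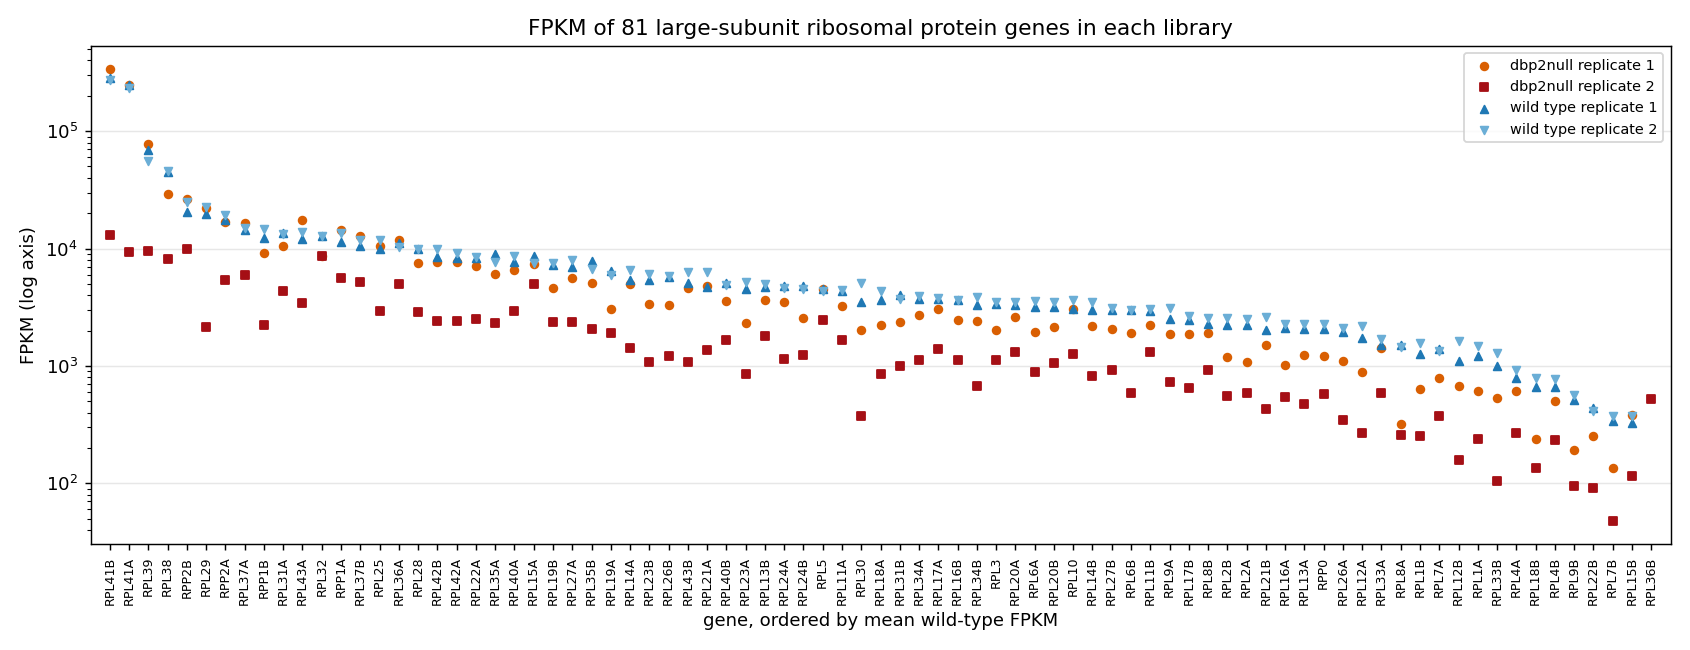
FPKM (log axis) of the 81 large-subunit ribosomal protein genes, ordered from left to right by mean wild-type FPKM, with 1 symbol per library. The wild-type libraries lie close together, dbp2null replicate 2 lies below them for 80 genes, and RPL36B has only that library's point because the other 3 list it at 0.

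Much of this abundance came from a few very short genes. RPL41B, which encodes the smallest ribosomal protein, was at 341315 and 12975 FPKM in dbp2null and at 282276 and 273101 FPKM in wild type. Its copy RPL41A was at 248037 and 9249 FPKM in dbp2null and at 248182 and 232599 FPKM in wild type. For both, dbp2null replicate 1 lay close to or above wild type and replicate 2 far below, so the genotypes overlapped. Together they held 50.6% and 48.4% of the FPKM of the 81 genes in wild type, and 56.3% and 12.9% in dbp2null. RPL39, whose small protein lines the exit tunnel, was at 78381 and 9552 FPKM in dbp2null and at 69167 and 55275 FPKM in wild type. RPL38, another small protein, was at 29200 and 8209 FPKM in dbp2null and at 44855 and 45582 FPKM in wild type. RPL39 overlapped between genotypes, and RPL38 was lower in both dbp2null libraries.

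Among the 72 genes of at least 300 bases, the share of FPKM (of all nuclear protein-coding features that long) was 32.1% and 33.4% in wild type and 30.1% and 21.2% in dbp2null. The abundance of the RNA of a protein was more even than that of single genes. Both copies of a pair were summed for the 40 proteins with genes of that length. The mean wild-type level ran from 1572 FPKM for Rpl4 to 41079 FPKM for RPP2A and RPP2B together, with a median of 7395 FPKM. Shorter genes read higher, with a Spearman's rho of -0.69 between coding length and wild-type level across 80 genes (without RPL36B). The part of length in this range was not tested. The SD across proteins was 1.04 on the log2 scale, against 1.32 across 71 single genes above 0. Summing a minor copy with its major copy removes low values by itself, so part of this difference was fixed in advance.

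The comparison of dbp2null with wild type used limma on log2(FPKM + 1) over the 6781 features whose mean FPKM reached 1. All 81 genes passed this filter. None was called at a Benjamini-Hochberg adjusted p below 0.05, where 1.19% of all tested features were. At an unadjusted p below 0.05, 4 genes were lower (RPL8A, RPL18B, RPL9B and RPL7B) and none higher, while by this rule 5.41% of all features were lower and 32.5% higher. The smallest p of an exact permutation test of 2 libraries against 2 is 0.3333, and these p-values rest on the spread that limma pools across features. The SE tended to rise with level. Its minimum over the 81 genes was 0.51 and its median 0.94, and RPL41B, the most abundant in wild type, had 2.88. A lack of calls among the abundant genes therefore says little about them.

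The direction was nearly uniform. The fitted log2 fold change was below 0 for 80 of 81 genes, RPL36B being the exception, against 37.7% of all tested features. For 65 of 81 genes both dbp2null libraries lay below both wild-type libraries, against 20.7% of all features, and for none did both lie above, against 49.8% of all features. The median log2 fold change over the genes was -1.18 and that over all features 0.28, a median lower by 1.46 on the log2 scale. The size depended on the dbp2null library. Replicate 1 had a median difference from the wild-type mean of -0.50 and replicate 2 one of -1.91. In replicate 1 alone, 65 genes lay below both wild-type libraries (22.3% of all features did), 6 lay between them and 10 above. In replicate 2, 80 lay below both (39.3% of all features did), and 79 of 81 genes were lower in replicate 2 than in replicate 1.

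The direction also depended on scaling. With quantile normalization, which forces the 4 libraries to 1 distribution, the median was 0.36, with 60 genes higher and 21 lower. With nuclear protein-coding features rescaled to 1 sum the median was -0.36, with 67 genes lower and 14 higher, while the median of all features became 1.08. Without dbp2null replicate 1, 74 genes were called, 73 of them lower, where 21.2% of all features were called lower. Without dbp2null replicate 2 only RPL8A was called (adjusted p = 0.0308), where 0.472% of all features were called lower.

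In a fit of features of at least 300 bases only, 10 of 72 genes were called, all lower, where 6.02% of all features that long were called lower. In either direction 37.3% of those features were called. The called large-subunit genes are listed next. These genes were RPL1A, RPL1B, RPL7B, RPL8A, RPL9B, RPL12A, RPL12B, RPL18B, RPL22B and RPL33B. Of these, RPL7B, RPL8A, RPL9B, RPL18B, RPL22B and RPL33B are the less abundant copy of a pair in wild type. Genes of low level tended to have the smaller SE, so such copies could be called more readily. The more abundant RPL30, with a log2 fold change of -2.27, was not called in this fit (limma adjusted p = 0.0577). The part of level in which genes were called was not tested. RPL1A and RPL1B, and RPL12A and RPL12B, are both copies of a pair, and the RPL1 copies in particular are nearly identical.

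The largest fold change among genes above 0 in every library was that of RPL8A, which encodes a protein that takes part in assembly of the large subunit. RPL8A was at 320 and 258 FPKM in dbp2null and at 1521 and 1451 FPKM in wild type. Both dbp2null libraries were far below both wild-type libraries, and here they lay close to each other (log2 fold change -2.37, SE 0.53, limma adjusted p = 0.0652). Its copy RPL8B was at 1899 and 914 FPKM in dbp2null and at 2259 and 2569 FPKM in wild type, lower in both dbp2null libraries by less (log2 fold change -0.87, SE 0.82, adjusted p = 0.46).

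RPL18B was at 239 and 134 FPKM in dbp2null and at 667 and 785 FPKM in wild type (log2 fold change -2.01, SE 0.51, limma adjusted p = 0.0714). RPL9B was at 193 and 94.9 FPKM in dbp2null and at 513 and 567 FPKM in wild type (log2 fold change -1.99, SE 0.51, adjusted p = 0.0719). Both are the minor copy of their pair, and for both the genotypes did not overlap. RPL7B was at 135 and 47.3 FPKM in dbp2null and at 336 and 374 FPKM in wild type (log2 fold change -2.13, SE 0.59, limma adjusted p = 0.0791). Its intron hosts the small nucleolar RNA snR59, listed at 492 and 16.7 FPKM in dbp2null, against 2312 and 2580 FPKM in wild type. The major copy RPL7A was at 792 and 376 FPKM in dbp2null, against 1381 and 1332 FPKM in wild type. It hosts snR39, listed at 5279 and 190 FPKM in dbp2null and at 4119 and 3684 FPKM in wild type, so host and guest RNA did not order the libraries alike in that case.

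RPL33B was at 537 and 105 FPKM in dbp2null and at 994 and 1279 FPKM in wild type, with a log2 fold change of -2.24 (SE 0.92, limma adjusted p = 0.151). RPL30, whose protein represses splicing of its own transcript, was at 2021 and 375 FPKM in dbp2null and at 3475 and 5111 FPKM in wild type. Its log2 fold change was -2.27 (SE 1.11, limma adjusted p = 0.207). Both were lower in each dbp2null library, with a wide gap between those libraries.

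At the other end, some genes stood close to wild type in at least 1 dbp2null library. RPL5, which carries the 5S ribosomal RNA into the subunit, was at 4500 and 2470 FPKM in dbp2null and at 4496 and 4326 FPKM in wild type (log2 fold change -0.40, SE 0.98, limma adjusted p = 0.773). Its partners in that particle, RPL11A and RPL11B, had log2 fold changes of -0.92 and -0.81. RPL15A was at 7325 and 5023 FPKM in dbp2null, against 8638 and 7500 FPKM in wild type, with a log2 fold change of -0.41. RPL32 also had a smaller fold change than the median gene, but it was not close to wild type in either dbp2null library. It was the 1 gene with nearly equal levels in those libraries, 8700 and 8703 FPKM, against 12879 and 12884 FPKM in wild type. It lay below wild type in both (log2 fold change -0.57, SE 1.26, limma adjusted p = 0.755). That SE reflects the pooled spread, since the libraries of a genotype nearly coincide for this gene.

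Other single genes of known role are given as examples, chosen for their role and not as a class. RPL3, next to the peptidyl transferase centre, was at 2019 and 1128 FPKM in dbp2null and at 3390 and 3474 FPKM in wild type, without overlap. RPL10, which joins the subunit last, was at 3068 and 1261 FPKM in dbp2null and at 3054 and 3616 FPKM in wild type, and its first dbp2null library lay between the wild-type libraries. RPL25, at the mouth of the exit tunnel, was at 10572 and 2947 FPKM in dbp2null and at 9851 and 11779 FPKM in wild type, likewise overlapping. RPL40A and RPL40B, made as fusions to ubiquitin, had log2 fold changes of -0.89 and -1.05 and lay below wild type in both dbp2null libraries. RPL28, the gene in which mutations give cycloheximide resistance, was at 7502 and 2903 FPKM in dbp2null and at 9849 and 9903 FPKM in wild type.

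RPL36B was listed at 0 in dbp2null replicate 1 and in both wild-type libraries, and at 519 FPKM in dbp2null replicate 2. Its copy RPL36A was at 11844 and 4959 FPKM in dbp2null, against 11216 and 10321 FPKM in wild type. The coding sequences are 89.4% identical. An exact 0 in this table can be a failed estimate, so no fold is given for RPL36B and the pair is left out of the ratios below.

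Of the stalk genes, RPP1A and RPP2B stood higher relative to the RPL genes in both dbp2null libraries than in wild type, while RPP0 stood lower. RPP0 encodes the base of the stalk, which binds the ribosomal RNA, and the acidic proteins bind to it as P1A with P2B and P1B with P2A. RPP0 was at 1214 and 572 FPKM in dbp2null and at 2055 and 2256 FPKM in wild type, below wild type in both. RPP1A was at 14508 and 5610 FPKM in dbp2null and at 11419 and 13524 FPKM in wild type. Its partner RPP2B was at 26284 and 9989 FPKM in dbp2null and at 20280 and 24988 FPKM in wild type. Both were above wild type in dbp2null replicate 1 and below it in replicate 2. RPP1B was at 9220 and 2221 FPKM in dbp2null and at 12365 and 14767 FPKM in wild type. RPP2A was at 16660 and 5376 FPKM in dbp2null, against 17485 and 19405 FPKM in wild type. These partners lay below wild type in both dbp2null libraries.

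The median stalk gene lay above the median RPL gene by 2.54 and 2.25 on the log2 scale in dbp2null and by 1.76 and 1.91 in wild type. This ratio within a library did not overlap between genotypes, and its mean differed by 0.56. The gene RPP1A lay 2.54 and 2.31 above the RPL median in dbp2null and 1.64 and 1.79 above it in wild type. RPP2B lay 3.39 and 3.15 above it in dbp2null and 2.47 and 2.67 above it in wild type. For these 2 genes the dbp2null libraries were higher without overlap, by 0.71 and 0.70 on average, while RPP1B (1.88 and 0.98 against 1.76 and 1.91) and RPP2A (2.74 and 2.25 against 2.26 and 2.31) overlapped. Such a shift was not limited to the stalk. By the same measure 21 of 75 RPL genes (RPL36B left out) were higher in both dbp2null libraries and 24 lower, and RPL5, RPL15A, RPL37B and RPL36A differed by 0.77, 0.77, 0.72 and 0.68. RPP0 lay below the RPL median in every library, by a log2 difference of -1.04 and -0.98 in dbp2null and -0.83 and -0.80 in wild type. The summed RPP1 genes exceeded RPP0 by 4.29 and 3.77 on the log2 scale in dbp2null and by 3.53 and 3.65 in wild type. For the RPP2 genes the excess was 5.14 and 4.75 in dbp2null and 4.20 and 4.30 in wild type. RPP0 is longer than the acidic genes (939 coding bases against 321 or 333), and the part of length in this ratio was not tested. The same holds for the excess of the stalk genes over the RPL median.

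**Figure D2:**
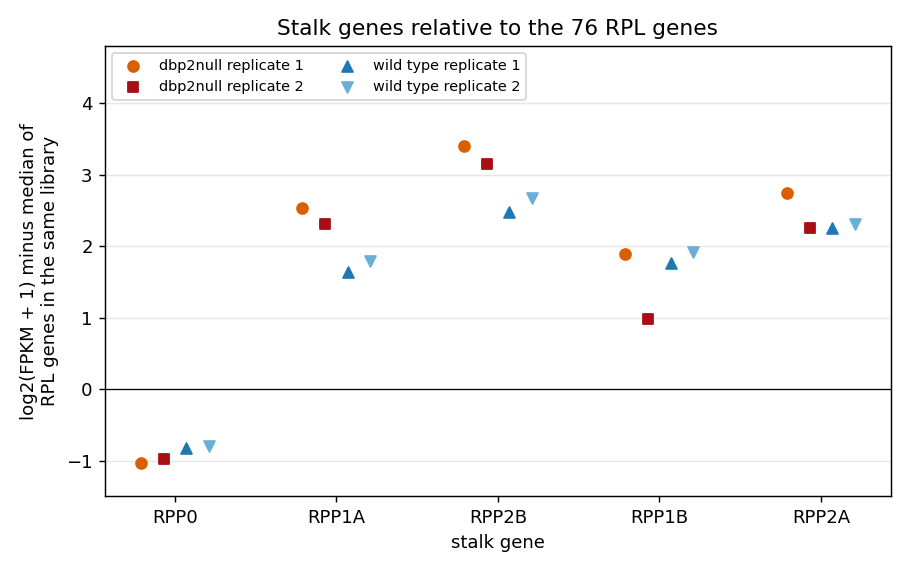
Level of the 5 stalk genes as log2(FPKM + 1) minus the median of the 76 RPL genes in the same library, with 1 symbol per library. RPP1A and RPP2B lie higher in both dbp2null libraries than in both wild-type libraries, and RPP0 lies below the RPL median in all 4.

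Duplicated genes were compared by the log2 ratio of copy A to copy B within each library, which library scaling leaves nearly untouched. Among 34 pairs without RPL36, the wild-type mean ratio ran from -1.51 to 4.52, with A the higher copy in 22 pairs and B in 12. In 23 pairs the ratio was within 1 log2 unit of equality, and in 4 it was beyond 2. The wild-type libraries gave nearly the same ratio, with a median gap of 0.11, against 0.24 between the dbp2null libraries. In 23 of 34 pairs both dbp2null ratios lay on 1 side of both wild-type ratios, with A relatively higher in dbp2null in 16 and lower in 7. Among the pairs of small-subunit genes this share was 62.5%.

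In 20 of these 23 pairs the copy that is lower in wild type had a still lower share in dbp2null, the exceptions being RPP1, RPL42 and RPL1. Of the 24 small-subunit pairs, 15 did not overlap, and the lower copy had a lower share in 7 and a higher one in 8. This difference between the subunits was not tested. The median log2 fold change was -1.10 for the higher copy of each large-subunit pair and -1.43 for the lower copy without RPL36B. Most shifts were small. The median absolute difference was 0.27, 7 of the 23 exceeded 0.5 and 6 were under 0.25. In 15 of 34 pairs the difference between genotypes was larger than the gap within either genotype.

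How well reads can separate the copies differs between pairs. Coding identity ran from 71.7% for RPP1 to 99.4% for RPL1, and the share of 50-base windows that are found in both copies ran from 0% to 80.99%. Of the 23 pairs, 19 are among the 25 pairs that share under 20% of such windows, and in 18 of these 19 the minor copy had the lower share. The 4 pairs that share the most windows had ratios near equality. RPL1 (80.99% shared) had a difference of 0.03, RPL35 (80.6%) one of 0.01, RPL4 (72.7%) one of -0.0048 and RPL41 (69.0%) one of -0.27. How the authors divided reads between copies is not given in the sources used here, so values of these pairs are uncertain.

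The largest shift among these 34 pairs was that of RPL8. RPL8A made up 40.2% and 36.1% of the summed RPL8 FPKM in wild type and 14.4% and 22.04% in dbp2null. Its log2 ratio was -0.57 and -0.82 in wild type and -2.57 and -1.82 in dbp2null, a difference of -1.495, larger than the gap of 0.75 between the dbp2null libraries. The copies are 95.1% identical and share 6.93% of windows. Part of the bases that tell them apart are the capitals in the stretch above.

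RPL33 came next, with 60.3% and 57.1% of its FPKM from RPL33A in wild type and 72.7% and 84.9% in dbp2null (difference in log2 ratio 1.44, gap within dbp2null 1.07, no shared window). In RPP1, RPP1A made up 48.0% and 47.8% in wild type and 61.1% and 71.6% in dbp2null (difference 1.12, gap 0.68). The order of the copies turned over in this pair, from slightly more RPP1B to more RPP1A. Only RPP1B has an intron.

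RPL7A made up 80.4% and 78.1% of RPL7 in wild type and 85.4% and 88.8% in dbp2null (difference in log2 ratio 0.82), and this pair shares 56.9% of its windows. RPL9A made up 83.0% and 84.5% of RPL9 in wild type and 90.7% and 88.5% in dbp2null (difference 0.74). RPL43A made up 70.4% and 68.5% of RPL43 in wild type and 79.0% and 76.1% in dbp2null (difference 0.60). RPL13 went the other way by letter, with RPL13A at 30.5% and 31.4% in wild type and 25.3% and 21.2% in dbp2null (difference -0.57), and RPL13A is its lower copy.

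The RPL22 genes have studied splicing feedback, in which the protein holds back splicing of RPL22B. RPL22B was at 251 and 91.9 FPKM in dbp2null and at 437 and 411 FPKM in wild type. RPL22A was at 7116 and 2527 FPKM in dbp2null and at 8258 and 8455 FPKM in wild type. RPL22A made up 96.6% and 96.5% of the sum in dbp2null and 94.97% and 95.4% in wild type, a difference in log2 ratio of 0.49 with a gap of only 0.05 between the dbp2null libraries. The table does not separate spliced from unspliced RNA.

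**Figure D3:**
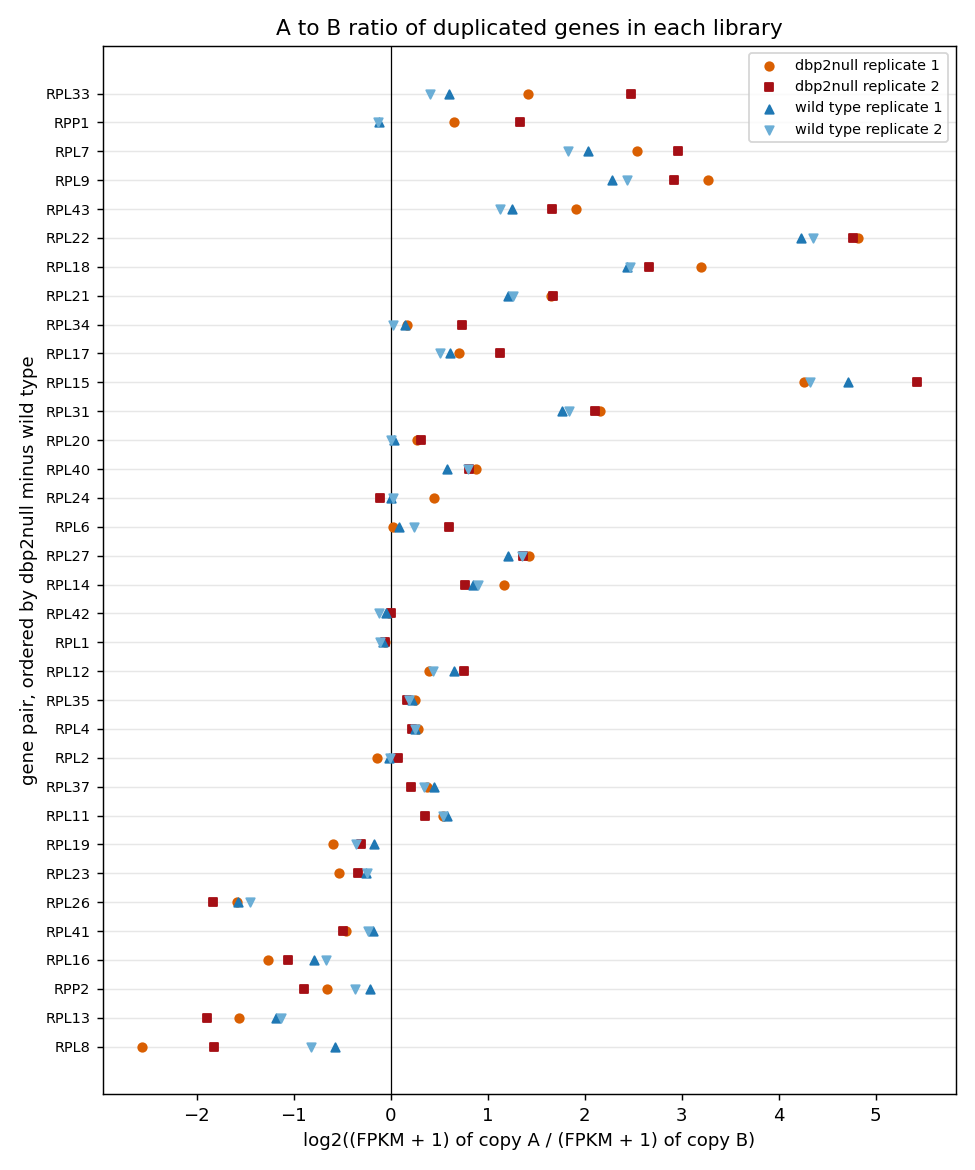
The log2 ratio of copy A to copy B, from FPKM + 1, for 34 duplicated genes in each library, ordered by the difference between genotypes. The wild-type symbols nearly coincide in most pairs, and RPL33, RPP1 and RPL8 show the largest separation of dbp2null from wild type, with wide gaps between the dbp2null libraries.

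Gene structure did not divide the set. The 53 genes with an intron had a median log2 fold change of -1.18 and the 28 without one -1.21. Genes whose first intron begins with GTATGT (41 without RPL36B) had a median of -1.21 and the 11 with other sites -1.13. The 5 genes with GTACGT had a median of -1.14. Single-copy genes had a median of -1.18 and members of pairs -1.20. Each of these subsets lay near the median of the whole set.

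Coding length moved with the dbp2null libraries in different ways. The 9 genes under 300 bases had a median difference from wild type of 0.17 in replicate 1 and -2.46 in replicate 2. The 38 genes of 300 to 500 bases had medians of -0.50 and -1.89, the 23 of 500 to 700 bases -0.64 and -1.71, and the 11 of 700 to 1200 bases -0.78 and -1.85. Other nuclear protein-coding features under 300 bases had medians of 0.73 and -1.51, those of 300 to 500 bases 0.49 and -0.25, and those of 700 to 1200 bases 0.34 and 0.21. Short genes were thus higher in replicate 1 and lower in replicate 2 in both sets, and in each length range the large-subunit genes lay below the other features. Across 80 genes (without RPL36B), Spearman's rho of length with the difference between the dbp2null libraries was 0.61, and with that between the wild-type libraries 0.06. The part of length in the fold changes was not tested.

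**Figure D4:**
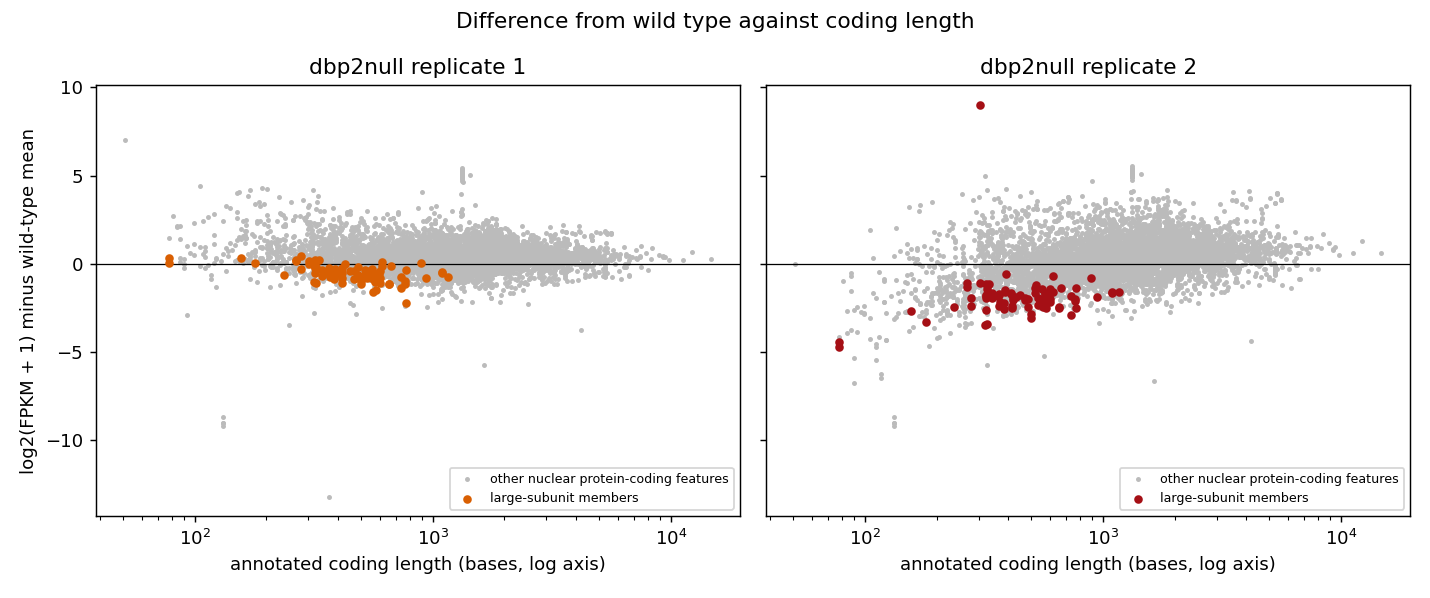
Difference of each dbp2null library from the wild-type mean on the log2(FPKM + 1) scale against annotated coding length (log axis), for the 81 large-subunit genes (coloured) and other tested nuclear protein-coding features (grey). In replicate 1 the shortest large-subunit genes lie near 0 and longer ones below it, and in replicate 2 the shortest lie lowest. The high point in replicate 2 is RPL36B, listed at 0 elsewhere.

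Other abundant genes were lower too. Among features of 300 to 1200 bases with a mean of at least 1000 FPKM, the 58 large-subunit genes had a median log2 fold change of -1.15 and 39 other nuclear protein-coding features, small-subunit genes left out, one of -0.95. Between 300 and 1000 FPKM the 10 large-subunit genes had a median of -1.91 and 113 other features one of -0.79. Over all nuclear protein-coding features that are no ribosomal protein gene the median was 0.37. Outside the large subunit a high level thus moved with a lower value in dbp2null. These means are taken over all 4 libraries, so a gene low in dbp2null can fall into the lower range through its own change. In that range the large-subunit genes had wild-type medians of 1042 and 1306 FPKM, against 513 and 522 FPKM for the other features. The lower median of the 10 large-subunit genes there is therefore not read as an effect of level. The part of level in the result was not tested.

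The order of the genes by level was compared between libraries. Across 80 genes, Pearson's r on the log2 scale was 0.996 between the wild-type libraries and 0.94 between the dbp2null libraries, with SDs of the difference of 0.17 and 0.74. Replicate 1 of dbp2null had r = 0.98 with each wild-type library, above its value with replicate 2. Replicate 2 had r = 0.92 and 0.91 with the wild-type libraries. These correlations describe genes of shared libraries and carry no p.

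The small subunit matched the large one. All 56 of its genes (RPS) had a log2 fold change below 0, none was called, and 46 had both dbp2null values below both wild-type values. Their median was -1.30. The largest changes were those of RPS21B (-2.12) and RPS17B (-1.99), with limma adjusted p of 0.281 and 0.156. The median of the large-subunit genes stood below that of the small-subunit genes by a log2 difference of -0.27 and -0.30 in dbp2null and -0.33 and -0.23 in wild type. These ratios overlapped, with a mean difference of -0.0014.

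Mitochondrial large-subunit genes were described beside them, since they build a ribosome of a different compartment under other control. None of the 40 was called, 25 were lower and 15 higher, and the median log2 fold change was -0.12, with 0.08 in replicate 1 and -0.36 in replicate 2. MRPL39 (-1.41, adjusted p = 0.348 in limma) and MNP1 (-1.30, adjusted p = 0.222) had the largest values.

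Of 16 regulators of ribosomal protein genes none was called, 12 were higher and 4 lower, with a median of 0.39 beside 0.28 for all features. CRF1, a corepressor that competes with Ifh1 for Fhl1, was at 15.9 and 26.2 FPKM in dbp2null and at 8.07 and 4.99 FPKM in wild type (log2 fold change 1.54, SE 0.37, limma adjusted p = 0.0684). STB3, a repressor known from ribosome biogenesis genes, had a log2 fold change of 0.91 (adjusted p = 0.0874 in limma). The activator IFH1 had nearly the same value, at 37.4 and 46.6 FPKM in dbp2null, against 28.0 and 20.4 FPKM in wild type (log2 fold change 0.78, SE 0.24, limma adjusted p = 0.0896). HMO1, a DNA-binding protein found at many of these promoters, had a log2 fold change of -0.82 (adjusted p = 0.25 in limma). CRF1, STB3 and IFH1 lay above wild type in each dbp2null library without passing the test. In all, 9 of the 16 regulators had both dbp2null values above both wild-type values, near the share of all features (49.8%).

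Of 22 chaperones and assembly partners of large-subunit proteins, 18 were lower and 4 higher and none was called, with a median of -0.21. RRS1, which helps bring the 5S particle of Rpl5 and Rpl11 into the subunit, had a log2 fold change of -1.01 (limma adjusted p = 0.159), and JJJ1, a late assembly factor, one of 0.87 (adjusted p = 0.128). Of the 17 translation factors that bind at the stalk or nearby, 16 were tested, 15 of them lower and 1 higher, with none called and a median of -1.05. HYP2 was listed at exactly 0 in all 4 libraries, which can be a failed estimate, and so did not pass the filter. TEF4, a subunit of elongation factor 1B, was at 319 and 185 FPKM in dbp2null and at 1164 and 1094 FPKM in wild type (log2 fold change -2.21, SE 0.55, limma adjusted p = 0.0695). EFB1 of the same factor had a log2 fold change of -1.28 (adjusted p = 0.363 in limma).

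Promoters were searched for the core letters of the factors known at these genes, on both strands, in the 500 bases before each start codon. ACCCNNACA, the Rap1 core used here, was found before 36 of the 81 large-subunit genes (44.4%), before 32.1% of the 56 small-subunit genes and in 5.49% of all 5988 windows. In the narrower window from 250 bases before to 50 after the start it was found for 8 genes (9.88%), against 2.84% of all windows. Both orientations are shown, a forward match before RPL8A (chrVIII:36236-36284, minus strand) and a reverse one before RPL9A (chrVII:228611-228659, minus strand). The core is in capitals with 20 bases on each side, read in the direction of the gene.

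RPL8A: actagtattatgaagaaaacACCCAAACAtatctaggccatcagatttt

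RPL9A: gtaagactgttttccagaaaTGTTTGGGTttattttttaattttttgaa

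The copies of a pair often differed in this match. Both copies had it in 8 of the 35 pairs, only A in 4, only B in 13 and neither in 10. The 36 genes with the match had a median log2 fold change of -1.28 and the 45 without it -1.13. The Fhl1-associated letters GACGCA were found for 18.5% of the genes and 10.9% of all windows, and a run of 10 T for 37.0% and 23.7%. The Abf1 core TCNNNNNNNACG was found for 42.0% and 46.1%, and the Reb1 core TTACCCG for 6.17% and 10.1%. In the narrower window the order turned for Abf1, at 32.1% of the genes and 30.1% of all windows. It did not turn for the Fhl1 letters, the T run or Reb1. A match is a description of the letters and does not show binding.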

How the data were processed

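Ribosomal-RNA-depleted total RNA was sequenced in 2 dbp2null and 2 wild-type libraries made with the ScriptSeq Complete Gold kit, per the labels' protocols. The authors deposited 1 table of FPKM, with a column per library. Per the submitters' processing notes, CASAVA, TopHat, Cufflinks, edgeR and the build sacCer3 were used, with no role or version given. Counts were not used here, so depth per library is unknown and no counting interval is given.

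After 3 blank lines were left out, 7126 features remained, and names tied 6162 of them, with all 81 large-subunit genes, to the R64 annotation of RefSeq. Features whose mean FPKM reached 1, 6781 in all, were fitted on log2(FPKM + 1), which understates changes of low genes, with limma 3.58.1 in R 4.3.3 (mean-variance trend, no covariate, two-sided, Benjamini-Hochberg over all tested features). The fit was run on simulated data with the same spread in every library and feature. The measured libraries are not alike in spread, so that run says nothing about the p-values given here. Percentiles, shares and ratios were computed within each library on all nuclear protein-coding features. Identity between copies, shared 50-base windows of coding sequence, introns and promoter letters were read from the R64 genome with Biopython 1.88.

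The members, gene lists and tests were chosen with earlier results of these data known, so no test over the list is given. Named genes are those with the largest and smallest fold changes, the highest and lowest levels, the pairs with the largest shifts or most shared windows, the stalk genes, snoRNA hosts, ubiquitin fusions and genes with known feedback, and the leading genes of each comparison list. RPL12A, RPL12B, RPL18B, RPL32, IFH1, HMO1 and the pairs RPL16, RPL27 and RPL42 were named after their values were seen. Alternatives covered pseudocounts, filters, scalings, the trend, a replicate block, each library left out, a length minimum and a wider promoter window.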

Additional observations from a re-analysis of the deposited data

How the results depend on the processing

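The count of 0 called genes stayed 0 with pseudocounts of 0.1 and 5, without a filter, with a mean of at least 10 FPKM, with median centring, quantile normalization, protein-coding rescaling and without the trend. It was 4 at an adjusted p below 0.1, for which the share of all features is not given, so the 4 genes cannot be set against it. It was 10 with features of at least 300 bases, where the test runs over longer features only. In that fit 37.3% of all features were called, and 6.02% were called lower. With a single library removed the count of called genes also changed. With 1 library left out it ran from 0 to 74, the highest without dbp2null replicate 1. The lone library of a genotype is then assumed to vary like the other genotype. The median log2 fold change of -1.18 became 0.36 with quantile normalization and -0.36 with protein-coding rescaling, and ran from -1.91 to -0.50 with 1 library left out. Relative to all features the median of -1.46 became 0.38 with quantile normalization and ran from -2.14 to -0.88 with 1 library left out. The 65 genes below wild type in both dbp2null libraries became 9 with quantile normalization. The share of all features under that scaling is not given, so the 9 genes cannot be set against it. With features of at least 300 bases, the difference of medians between intron-containing and intronless genes moved from 0.03 to -0.13 and the ratio of large to small subunit from -0.0014 to 0.096. The 23 pairs whose ratios did not overlap ran from 23 to 34 with 1 library left out, a count that cannot fall when a library is removed and so says nothing about stability. The cause of these shifts was not tested.

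Protein-coding rescaling moves all genes of a library nearly alike and left the median relative to all features at -1.44. On the absolute scale it turned the log2 fold change of 11 named genes to above 0, RPL10 0.066, RPL11B 0.016, RPL15A 0.41, RPL15B 0.084, RPL33A 0.024, RPL36A 0.33, RPL37B 0.37, RPL43A 0.081, RPL5 0.42, RPP1A 0.36 and RPP2B 0.35. Quantile normalization turned that of 30, RPL10 0.80, RPL11A 0.61, RPL11B 0.79, RPL13A 0.16, RPL13B 0.64, RPL15A 1.18, RPL22A 0.69, RPL25 0.63, RPL28 0.52, RPL3 0.37, RPL33A 0.77, RPL35A 0.45, RPL35B 0.45, RPL36A 0.96, RPL37B 0.99, RPL40A 0.85, RPL40B 0.48, RPL43A 0.85, RPL43B 0.13, RPL4A 0.47, RPL4B 0.37, RPL5 1.31, RPL7A 0.33, RPL8B 0.68, RPL9A 0.39, RPP0 0.31, RPP1A 1.08, RPP1B 0.012, RPP2A 0.63 and RPP2B 1.10. With 1 library left out, the values that turned without dbp2null replicate 2 ran from -1.59 to 0.12 for RPL15B, -1.12 to 0.14 for RPL36A, -1.10 to 0.19 for RPL37B, -2.69 to 0.34 for RPL39, -4.70 to 0.046 for RPL41A, -4.42 to 0.30 for RPL41B, -1.91 to 0.43 for RPL43A, -0.84 to 0.029 for RPL5, -1.15 to 0.22 for RPP1A and from -1.17 to 0.22 for RPP2B.

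The replicate block, with the replicate number as a term, also called 0 genes. The labels do not say that equal numbers pair libraries, and equal-numbered libraries deviated with r = -0.11 across all tested features. With crossed numbers 2 genes and 2667 features were called. Of the 12 named pairs, 10 kept the direction of their ratio difference under every alternative that tested them. RPL4 and RPL35, both with differences near 0, did not. The ratios of those 10 pairs did not overlap between genotypes, so leaving out a library cannot turn their direction. Scaling leaves such ratios nearly untouched, so the count of 10 says little about stability.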
